A study of Homo sapiens with 12 samples.

Results

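The genes described here are a list of 55 that act in mitosis or on the spindle, followed in 2 lines of cutaneous squamous cell carcinoma treated with everolimus. A listed gene was included where the annotation gave it a named probe set on the array, and for a gene with several probe sets the brightest would have been taken. That held for 45 of the 55, each with 1 probe set, out of 14884 genes with a named probe set, and all 45 passed the filter on low values that left 10613 genes for testing. The 10 left out, with no probe set named for them here, are UBE2C, CENPE, CENPF, NUF2, TPX2, DLGAP5, ASPM, ANLN, NCAPG and NCAPH. The 45 were placed in 10 roles, from mitotic entry to chromosome structure.

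HSC-1 and A431 are established human lines of skin squamous cell carcinoma. Each was given everolimus, which is related to rapamycin and blocks mTOR complex 1, for 72 h at 100 nM, or its vehicle DMSO for the same time, and RNA was measured on 12 Affymetrix arrays, 3 in each of 4 groups: HSC-1 with everolimus, HSC-1 with DMSO, A431 with everolimus and A431 with DMSO. By its title the study looked for genes associated with resistance to everolimus, and its labels name neither line as resistant. Whether the 3 arrays of each group represent separate cultures is not stated, so p-values reflect no more than how far these arrays spread, and that spread may be technical. Serum in the medium was at either of a pair of levels that the labels do not tie to a line, so serum and line cannot be told apart where the lines are compared.

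Mitosis genes are transcribed late in the cell cycle, when a cell has copied its DNA and prepares to divide. In resting and early cycling cells the DREAM complex holds many of them silent, and later the MuvB core passes to B-MYB and FOXM1, which switch them on. Cyclin B with CDK1 then starts mitosis, kinesins and other microtubule proteins build the spindle, the kinetochores attach chromosomes to it, and the spindle checkpoint holds back the anaphase-promoting complex (APC/C) until every chromosome is attached. Rapamycin analogues are known for slowing cell growth and passage through the early cell cycle.

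Deposited values were log2 levels from RMA, which brings the arrays to nearly the same distribution, with array medians here of 4.34 to 4.39. A change in the total RNA of a cell would therefore not show. A level depends on the probes of its probe set, so levels are compared between arrays for 1 gene and never between genes. Over all 53617 probe sets, the correlation was 0.989 to 0.992 within a group, 0.987 to 0.991 between the treatments of a line and 0.955 to 0.962 between the lines, and no array stood apart from its group. Of 12 keratinocyte markers, 8 had a named probe set and all 8, KRT5, KRT14, EGFR and desmosomal genes among them, lay above the array median on all 12 arrays. The 3 endothelial markers with a probe set, and DCN, LYZ, MLANA and TYR of the fibroblast, leukocyte and melanocyte markers, lay above it on 0 arrays. PMEL, CD14 and LUM lay above it on 1, 5 and 6 arrays, and SOX10, MITF and CD68 on all 12. The number of arrays limits the precision of every value below.

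Promoters of the 2 genes with the largest falls in HSC-1 that hold both a CCAAT box, the motif bound by NF-Y, and a cell cycle genes homology region (CHR), the element bound by MuvB complexes, are shown first, since these elements are known to time transcription of mitosis genes. They are followed by the promoter of CDC25B, the gene whose HSC-1 difference was nearest to 0. The sequences are the 250 bases before the start site, 5′ to 3′ on the strand of the gene, from RefSeq on GRCh38.p14, with CCAAT boxes and CHR elements in capitals. CDC20 lies at chr1:43358731-43358980 on the plus strand, PLK1 at chr16:23678639-23678888 on the plus strand and CDC25B at chr20:3786701-3786950 on the plus strand.
CDC20: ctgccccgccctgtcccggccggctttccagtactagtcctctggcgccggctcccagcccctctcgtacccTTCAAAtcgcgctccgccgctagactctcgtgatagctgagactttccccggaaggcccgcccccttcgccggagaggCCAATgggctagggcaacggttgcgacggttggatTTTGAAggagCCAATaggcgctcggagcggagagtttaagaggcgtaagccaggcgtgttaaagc
PLK1: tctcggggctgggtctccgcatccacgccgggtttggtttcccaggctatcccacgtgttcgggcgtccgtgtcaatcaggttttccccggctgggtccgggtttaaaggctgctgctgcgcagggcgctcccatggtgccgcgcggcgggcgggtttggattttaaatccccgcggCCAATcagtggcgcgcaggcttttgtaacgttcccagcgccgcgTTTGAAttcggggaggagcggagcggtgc
CDC25B: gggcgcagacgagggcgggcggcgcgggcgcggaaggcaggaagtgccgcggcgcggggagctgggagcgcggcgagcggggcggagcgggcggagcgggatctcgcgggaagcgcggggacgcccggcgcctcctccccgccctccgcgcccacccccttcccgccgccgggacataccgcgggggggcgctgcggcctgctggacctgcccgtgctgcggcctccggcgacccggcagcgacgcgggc

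In CDC20 the 2 CCAAT boxes began 100 and 55 bases before the start, and CHR letters began 178 bases before it (TTCAAA, the motif on the other strand) and 65 bases before it (TTTGAA). PLK1 held a CCAAT box 73 bases and a CHR 29 bases before the start. CDC25B held neither in this window, the table's first of 4 start sites for that gene, while each motif was found in the window of at least 1 of its other start sites. The search covered the 250 bases before and 50 after the start, on both strands, for CCAAT and for TTTGAA or TTCGAA. Of the 45 genes, 39 had a promoter in the table, and AURKA, BIRC5, CDCA2, TTK, RACGAP1 and FOXM1 had none. A CCAAT box was found in 31 of the 39 (79.5%), against 36.3% of the 8089 tested genes with a promoter. CHR letters were found in 28 (71.8%), against 11.1%, and both in 24 (61.5%), against 4.8%. Such a match is a description of the letters, not evidence of a bound site.

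Most of the mitosis and spindle genes fell in HSC-1 with everolimus relative to HSC-1 with DMSO. Of the 45, 35 (77.8%) fell at an adjusted p under 0.05 in limma, against 11.3% of all 10613 genes tested. In the other direction 0 rose, against 7.34% of all genes, and 0 rose at an unadjusted p under 0.05. No share over all genes was counted at an unadjusted p, here or below. The log2 difference was negative for 44 of 45, against 55.1% of all tested genes. Its median was -0.27, against -0.02 over all tested genes. All 3 everolimus arrays lay below all 3 DMSO arrays for 38 genes (84.4%), against 19.6% of all genes, and above them for 0, against 13.7% of all genes. The falls were small: the largest was 1.46-fold and 0 of the 45 passed 1.5-fold. Few genes did at all, with 143 of all 10613 tested passing it in either direction. In bulk RNA, fewer cells in mitosis and less of each RNA per cell cannot be told apart.

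In A431 few of the 45 genes passed the test, and those that did were higher with everolimus than with DMSO. Of the 45, 3 (6.67%) rose, against 2.39% of all genes, and 0 fell, against 4.33% of all genes. At an unadjusted p under 0.05, 13 rose and 0 fell. With no share over all genes counted there, these are a description only. The log2 difference was positive for 36 of 45, against 49.0% of all tested genes. Its median was 0.08, against a median of 0.00 over all tested genes. All 3 everolimus arrays lay above all 3 DMSO arrays for 15 genes (33.3%), against 11.0% of all genes, and below them for 0, against 13.5% of all genes. The largest difference either way was 1.21-fold.

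Averaged over the 45 genes, the log2 level was 7.857, 7.805 and 7.761 on the HSC-1 everolimus arrays, against 8.081, 8.071 and 8.071 on the HSC-1 DMSO arrays. It was 8.134, 8.107 and 8.186 on the A431 everolimus arrays, against 8.105, 8.072 and 8.045 on the A431 DMSO arrays. The HSC-1 groups stood clearly apart, while in A431 the lowest everolimus array lay only just above the highest DMSO array. On the 3 HSC-1 everolimus arrays 43, 44 and 45 of the genes lay below their HSC-1 DMSO mean, a count that takes in genes that did not pass the test. On the A431 everolimus arrays 34, 29 and 40 of the genes lay above their A431 DMSO mean. On A431 DMSO replicates 1, 2 and 3 themselves, 36, 24 and 9 did, so the 34 and 29 were exceeded without everolimus. On the HSC-1 DMSO arrays 17, 24 and 26 lay below their HSC-1 DMSO mean.

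**Figure D1:**
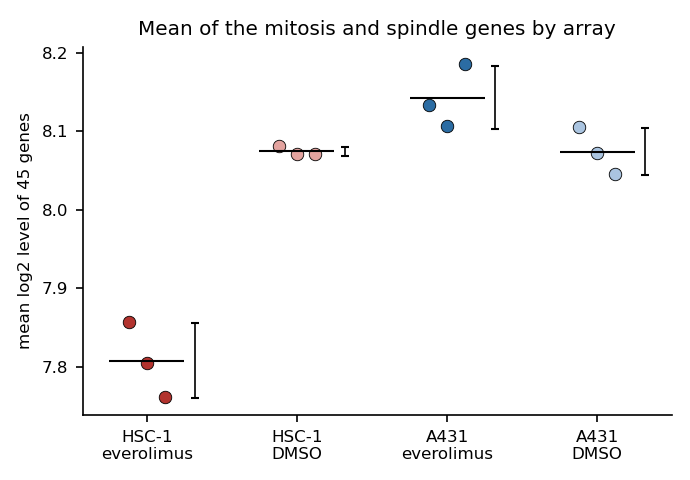
The mean log2 level of the 45 genes on each array (points), with the group mean (line) and SD (bar beside it), for HSC-1 with everolimus and DMSO and A431 with everolimus and DMSO. The HSC-1 everolimus mean was 7.81 ± 0.0481 and the other 3 group means lay between 8.07 and 8.14 (SD, n = 3 each).

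Among the 8 genes of mitotic entry, 5 fell in HSC-1 with everolimus and the other 3 did not pass the test. CCNB1 encodes cyclin B1, the partner of CDK1 that drives entry into mitosis. Its level (probe set 16985599) was 7.51, 7.37 and 7.34 on the HSC-1 everolimus arrays, against 7.84, 7.85 and 7.87 on the DMSO arrays, and it fell by 0.45 ± 0.06 (SE) on the log2 scale, with a limma adjusted p of 5.34e-05. CCNA2, cyclin A2, which acts before cyclin B, had 8.12, 8.11 and 8.06 with everolimus, against 8.53, 8.57 and 8.53 with DMSO, a log2 difference of -0.45 ± 0.04 (limma adjusted p = 7.62e-07). For both cyclins every everolimus array was below every DMSO array, by more than the spread within a group. FOXM1, the transcription factor that activates many genes of this list, differed by -0.43, CCNB2 by -0.29 and CDK1, the kinase itself, by -0.20, and all passed the threshold. The CDK1 call was lost in 4 of 22 alternatives, among them omission of HSC-1 DMSO replicate 2 or 3 or HSC-1 everolimus replicate 1. Its adjusted p in limma reached 0.0898. CDC25B, a phosphatase that removes the brake on CDK1, had 9.29, 9.30 and 9.28 in HSC-1 with everolimus, against 9.30, 9.34 and 9.27 with DMSO. Its groups overlapped and its log2 difference was -0.01, with a 95% interval from -0.10 to 0.07, and it was 0.01 without HSC-1 DMSO replicate 2. CDC25C at -0.14 and CDCA3, a trigger of mitotic entry, at -0.16 also missed the threshold.

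PLK1, the polo kinase that matures centrosomes and spindle poles, had the next largest fall of all after CDC20. Its level (probe set 16817017) was 9.82, 9.93 and 9.85 in HSC-1 with everolimus, against 10.40, 10.37 and 10.35 with DMSO, 1.42-fold lower, with a log2 difference of -0.51 ± 0.04 (limma adjusted p = 5.69e-08). AURKA, the Aurora kinase of the spindle poles, had 7.39, 7.13 and 7.21 with everolimus, against 7.49, 7.72 and 7.52 with DMSO, and fell by 0.34 ± 0.08 (limma adjusted p = 0.00403). Groups did not overlap for either kinase, though the highest AURKA array with everolimus came close to the lowest with DMSO. NEK2, a kinase that separates centrosomes, differed by -0.13, which missed the threshold.

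Of the 4 spindle checkpoint genes, 3 fell. MAD2L1, whose product MAD2 binds and holds back CDC20, had 6.45, 6.52 and 6.44 in HSC-1 with everolimus, against 6.86, 6.84 and 6.88 with DMSO, a log2 difference of -0.39 ± 0.06 (limma adjusted p = 0.000227). BUB1, a checkpoint kinase at the kinetochore, had 7.87, 7.95 and 7.80 with everolimus, against 8.17, 8.15 and 8.18 with DMSO, a log2 difference of -0.29 ± 0.05 (limma adjusted p = 0.000258). Neither gene had an everolimus array within the range of the DMSO arrays. BUB1B, also part of the checkpoint, fell by 0.16, a call lost in 6 of 22 alternatives, with adjusted p of up to 0.122 in limma. Among these alternatives were the omissions of HSC-1 DMSO replicate 2 or 3 and of HSC-1 everolimus replicate 2 or 3. TTK, the MPS1 kinase, differed by -0.10 and did not pass.

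CDC20, the activator of the APC/C at the start of anaphase and the target of the checkpoint, had the largest fall of the 45 in HSC-1. Its level (probe set 16663514) was 9.00, 8.89 and 9.00 with everolimus, against 9.51, 9.55 and 9.46 with DMSO, 1.46-fold lower, with a log2 difference of -0.54 ± 0.04 (limma adjusted p = 4.59e-08). The highest everolimus array lay well below the lowest DMSO array. PTTG1, or securin, the inhibitor of separase that the APC/C destroys, was the only gene of the 45 with a positive difference in HSC-1. It had 4.70, 4.87 and 4.57 with everolimus, against 4.84, 4.45 and 4.59 with DMSO, a log2 difference of 0.08 with a 95% interval from -0.21 to 0.37, and of -0.01 without HSC-1 DMSO replicate 2. Its groups overlapped, its levels lay near the array medians of 4.34 to 4.39, and near-identical copies of the gene make its probe set uncertain.

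The 3 genes of the chromosomal passenger complex, which corrects faulty attachments and later guides cytokinesis, all fell. CDCA8, borealin, had 7.51, 7.38 and 7.51 in HSC-1 with everolimus, against 7.86, 7.94 and 7.85 with DMSO, a log2 difference of -0.42 ± 0.05 (limma adjusted p = 2.21e-05). BIRC5, survivin, had 7.53, 7.49 and 7.54 with everolimus, against 7.99, 7.97 and 7.79 with DMSO, a log2 difference of -0.40 ± 0.06 (limma adjusted p = 0.000171). AURKB, the kinase of the complex, fell by 0.36. No array of 1 treatment reached the range of the other for any of the 3.

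All 4 kinetochore and centromere genes with a probe set fell, some less firmly than the passenger complex. SGO2, a shugoshin that protects cohesion at centromeres, had 6.03, 6.05 and 5.83 in HSC-1 with everolimus, against 6.25, 6.36 and 6.48 with DMSO, a log2 difference of -0.39 ± 0.10 (limma adjusted p = 0.012). NDC80, the kinetochore protein that grips the microtubule, had 6.72, 6.63 and 6.52 with everolimus, against 6.90, 6.95 and 6.77 with DMSO, a log2 difference of -0.25 ± 0.07 (limma adjusted p = 0.0207). The groups did not overlap for either gene, yet both calls depended on single arrays. Without HSC-1 DMSO replicate 3 or HSC-1 everolimus replicate 3 the SGO2 difference was -0.33 or -0.32, with limma adjusted p of 0.0617 and 0.0545. Without HSC-1 DMSO replicate 1 or 2 or HSC-1 everolimus replicate 2 or 3 the NDC80 difference was -0.23, -0.21, -0.25 and -0.19, with limma adjusted p from 0.0508 to 0.092. The NDC80 call was lost in 5 of 22 alternatives, these omissions among them. CENPA, the histone variant that marks centromeres, fell by 0.23 and SGO1 by 0.20. The SGO1 call was lost in 5 of 22 alternatives, with adjusted p of up to 0.122 in limma. Those alternatives included the omission of HSC-1 DMSO replicate 2 or 3 or HSC-1 everolimus replicate 1 or 2.

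The kinesins were the largest role to fall whole, with 9 of 9 past the threshold and log2 differences from -0.42 to -0.12. KIF4A, a chromosome-bound kinesin, had 6.93, 6.90 and 6.61 in HSC-1 with everolimus, against 7.13, 7.13 and 7.43 with DMSO, a log2 difference of -0.42 ± 0.10 (limma adjusted p = 0.00848). Without HSC-1 DMSO replicate 3 the difference was -0.32 with a limma adjusted p of 0.0575, and a near-identical copy of this gene makes its probe set uncertain. KIF20A, a kinesin of the central spindle, had 8.37, 8.35 and 8.23 with everolimus, against 8.74, 8.70 and 8.65 with DMSO, a log2 difference of -0.38 ± 0.05 (limma adjusted p = 4.48e-05). In both genes the everolimus arrays were all below the DMSO arrays. KIF2C, which depolymerises microtubules at centromeres, fell by 0.36, KIF15, a spindle-length motor, by 0.32, KIF14 by 0.28, KIF20B by 0.23 and KIF18A by 0.20. KIF11, the motor that pushes the poles apart, fell by 0.17 and KIF23, a subunit of centralspindlin, by 0.12, the smallest fall to pass. The KIF11 call was lost in 7 of 22 alternative settings, among them the omission of any HSC-1 array but everolimus replicate 1, with adjusted p of up to 0.15 in limma. The KIF23 call was lost in 12, among them the omission of any HSC-1 array but DMSO replicate 3 and of A431 DMSO replicate 2 or 3 or A431 everolimus replicate 1, with adjusted p of up to 0.188 in limma.

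Of the 6 spindle microtubule proteins, 4 fell. GTSE1, which stabilises microtubules, had 6.76, 6.52 and 6.52 in HSC-1 with everolimus, against 6.99, 6.98 and 7.05 with DMSO, a log2 difference of -0.41 ± 0.07 (limma adjusted p = 0.000347). SPAG5, astrin, a spindle and kinetochore protein, had 7.61, 7.47 and 7.33 with everolimus, against 7.87, 7.80 and 7.81 with DMSO, a log2 difference of -0.36 ± 0.08 (limma adjusted p = 0.0023). Neither overlapped between the treatments. HMMR fell by 0.33 and CKAP2L by 0.15, while NUSAP1 differed by -0.10 and CKAP2 by -0.04 without passing. The CKAP2L call was lost in 7 of 22 alternatives, among them the omission of any 1 of the 6 HSC-1 arrays. Its adjusted p in limma reached 0.0989. CKAP2, a microtubule stabiliser, had 8.32, 8.19 and 8.19 with everolimus, against 8.30, 8.32 and 8.20 with DMSO, and the groups overlapped.

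Of the 3 genes of the central spindle and cytokinesis, 2 fell. ECT2, the exchange factor that switches on RhoA at the cleavage site, had 8.61, 8.63 and 8.47 in HSC-1 with everolimus, against 8.93, 8.88 and 8.89 with DMSO, a log2 difference of -0.33 ± 0.05 (limma adjusted p = 0.000242). PRC1, which bundles central spindle microtubules, had 8.69, 8.79 and 8.78 with everolimus, against 9.00, 9.04 and 9.02 with DMSO, a log2 difference of -0.26 ± 0.05 (limma adjusted p = 0.00115). For both, all everolimus arrays were lower than all DMSO arrays. RACGAP1, the partner of KIF23, had a log2 difference of the same size, -0.26, but levels near the array medians and an SE of 0.11, and its adjusted p in limma was 0.106.

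Of the 3 genes of chromosome structure, 2 fell. CDCA2, which recruits a phosphatase to chromosomes at anaphase, had 6.79, 6.82 and 6.72 in HSC-1 with everolimus, against 7.05, 6.98 and 7.10 with DMSO, a log2 difference of -0.27 ± 0.07 (limma adjusted p = 0.00962). MKI67, the Ki-67 antigen that coats mitotic chromosomes, had 9.71, 9.69 and 9.63 with everolimus, against 9.92, 9.89 and 9.92 with DMSO, a log2 difference of -0.24 ± 0.04 (limma adjusted p = 0.000171). The arrays of the 2 treatments did not overlap for either. TOP2A, the topoisomerase that untangles DNA, had 9.88, 9.91 and 9.81 with everolimus, against 9.92, 9.94 and 9.87 with DMSO, and these overlapped. Its log2 difference was -0.05, with a 95% interval from -0.13 to 0.04.

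**Figure D2:**
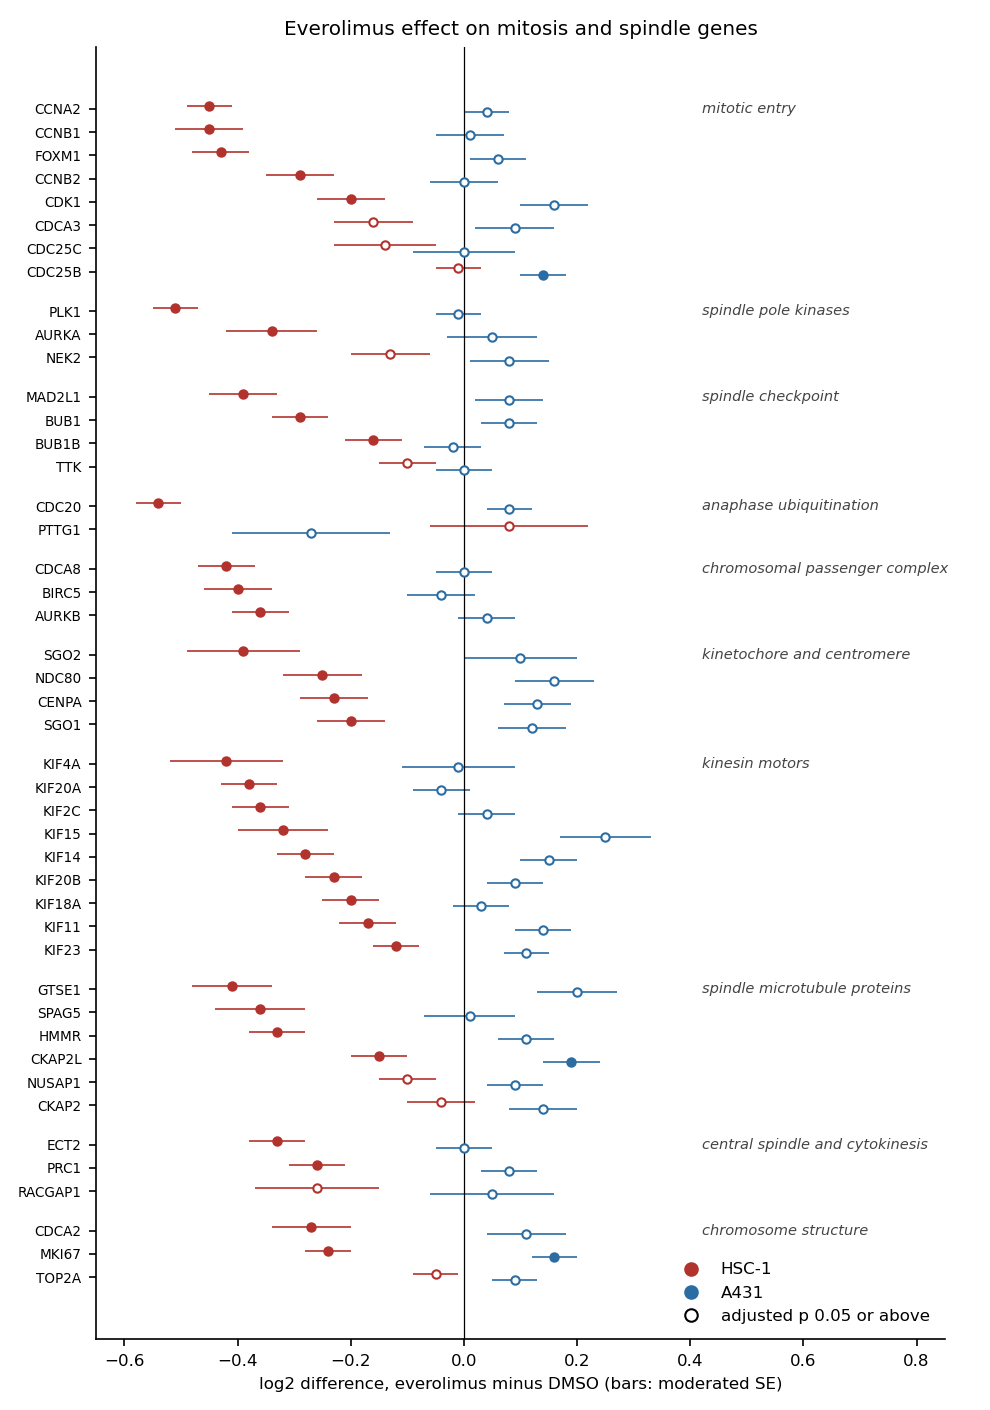
Log2 differences of everolimus minus DMSO for the 45 genes by role, in HSC-1 (red) and A431 (blue), with bars for the moderated SE; filled points passed an adjusted p of 0.05 in limma. The HSC-1 points lie left of 0 for 44 genes and the A431 points right of 0 for 36.

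In A431 the genes past the threshold came from 3 different roles. MKI67 had 10.06, 10.03 and 10.11 in A431 with everolimus, against 9.92, 9.88 and 9.90 with DMSO, a log2 difference of 0.16 ± 0.04 (limma adjusted p = 0.00968). CKAP2L, a spindle protein, had 8.29, 8.32 and 8.44 with everolimus, against 8.15, 8.17 and 8.16 with DMSO, a log2 difference of 0.19 ± 0.05 (limma adjusted p = 0.0157). In both genes each everolimus array was above each DMSO array. CDC25B had 8.34, 8.41 and 8.35 with everolimus, against 8.20, 8.27 and 8.20 with DMSO, a log2 difference of 0.14 ± 0.04 (limma adjusted p = 0.0457). KIF15 had the next smallest p and did not pass, with 6.31, 6.29 and 6.45 with everolimus, against 6.11, 6.10 and 6.10 with DMSO, and a log2 difference of 0.25 ± 0.08 (limma adjusted p = 0.0724). CDC25B and KIF15 did not overlap between treatments either.

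All 3 A431 calls depended on single arrays. Left without A431 DMSO replicate 2, MKI67 had a log2 difference of 0.15 and a limma adjusted p of 0.0545. CKAP2L had 0.18 and a limma adjusted p of 0.059 without A431 DMSO replicate 1, and 0.14 and 0.0712 without A431 everolimus replicate 3. CDC25B lost its call in 16 of 22 alternatives, in 6 of 6 that left out an A431 array, with a highest adjusted p of 0.181 in limma. The count of rising genes was 1 without any of A431 DMSO replicate 1, A431 DMSO replicate 2 or A431 everolimus replicate 3, in place of 3. The gene with the largest negative A431 difference was PTTG1, at -0.27 ± 0.14, with 4.85, 4.66 and 4.86 with everolimus, against 5.23, 4.78 and 5.17 with DMSO, and overlapping groups (limma adjusted p = 0.302).

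**Figure D3:**
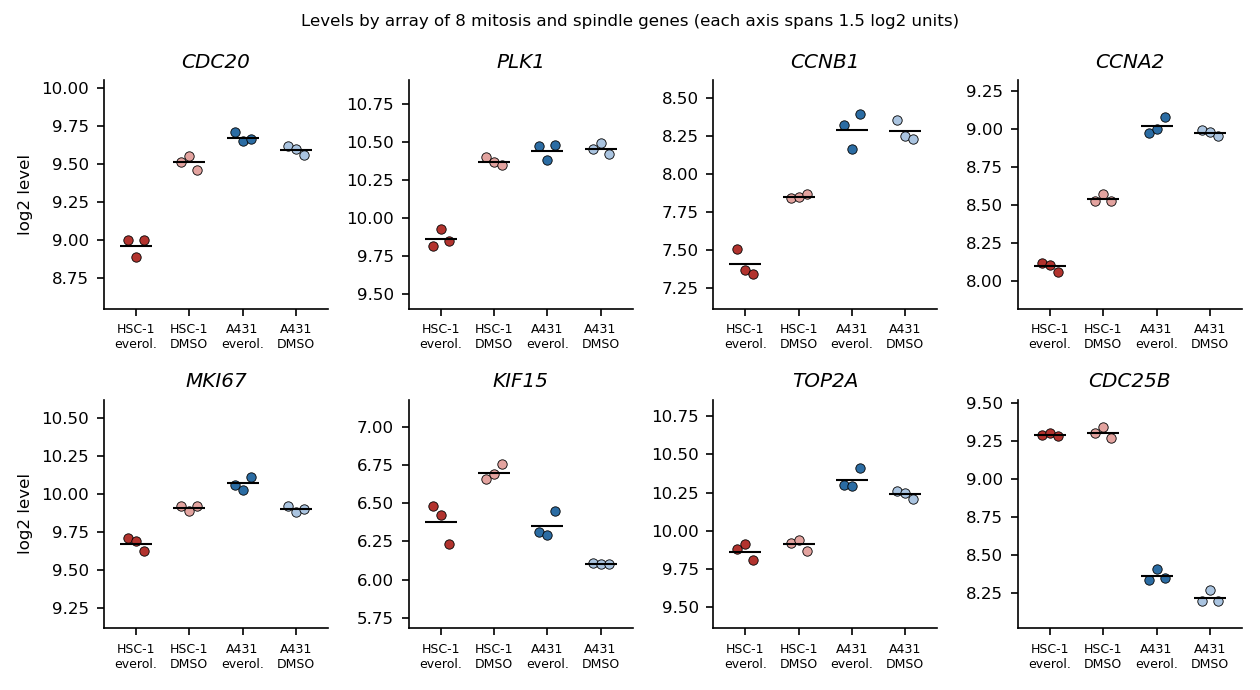
Log2 levels by array (points) and group means (lines) of CDC20, PLK1, CCNB1, CCNA2, MKI67, KIF15, TOP2A and CDC25B in HSC-1 with everolimus and DMSO and A431 with everolimus and DMSO; every axis spans 1.5 log2 units. In HSC-1 the everolimus points of CDC20, PLK1, CCNB1, CCNA2, MKI67 and KIF15 lie below the DMSO points and those of TOP2A and CDC25B overlap them; in A431 the everolimus points of CDC20, MKI67, KIF15, TOP2A and CDC25B lie above the DMSO points, by less in CDC20 and TOP2A than in KIF15.

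The effects of everolimus were then compared directly, by subtracting the effect in A431 from that in HSC-1. It was lower than 0 past the threshold for 33 of 45 genes (73.3%), against 5.69% of all genes, and higher for 0, against 4.84% of all genes, with 0 higher at an unadjusted p under 0.05. Its median was -0.36, against -0.01 over all tested genes, and 2 of the 45 passed 1.5-fold, against 267 of all 10613 tested. This comparison uses the arrays of both lines and so is not independent of either effect.

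CDC20 had the largest difference between the lines, -0.62 ± 0.06 (limma adjusted p = 2.01e-06), with an effect of -0.54 in HSC-1 and 0.08 in A431. In A431 its level was 9.71, 9.65 and 9.66 with everolimus, against 9.62, 9.60 and 9.56 with DMSO. GTSE1 followed at -0.60 ± 0.10 (limma adjusted p = 0.000459), with -0.41 in HSC-1 and 0.20 in A431. Its A431 level was 7.62, 7.52 and 7.56 with everolimus, against 7.37, 7.32 and 7.41 with DMSO, so that the arrays of this gene separated in both lines, in opposite directions. The GTSE1 effect in A431 did not pass the threshold (limma adjusted p = 0.0996). KIF15 had a difference of -0.57 ± 0.11 (limma adjusted p = 0.00261), with -0.32 in HSC-1 and 0.25 in A431. In HSC-1 it had 6.48, 6.42 and 6.23 with everolimus, against 6.66, 6.69 and 6.76 with DMSO, again with no overlap in either line.

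PLK1 and CCNA2 fell in HSC-1 and did not pass the threshold in A431. PLK1 had a difference of -0.50 ± 0.06 (limma adjusted p = 1.45e-05), and its A431 level was 10.47, 10.38 and 10.48 with everolimus, against 10.45, 10.49 and 10.42 with DMSO. CCNA2 had -0.49 ± 0.06 (limma adjusted p = 3.81e-05), and its A431 level was 8.97, 9.00 and 9.08 with everolimus, against 8.99, 8.98 and 8.95 with DMSO. Both overlapped in A431, where the 95% interval of the effect ran from -0.10 to 0.07 for PLK1 and from -0.05 to 0.13 for CCNA2. SGO2 had a difference of -0.50 ± 0.15 (limma adjusted p = 0.0354), with A431 levels of 6.44, 6.18 and 6.28 with everolimus, against 6.05, 6.41 and 6.14 with DMSO, which overlapped. The SGO2 call was lost in 9 of 21 alternatives, among them the omission of any 1 of A431 DMSO replicates 1 and 3, A431 everolimus replicates 1 and 3, HSC-1 DMSO replicates 2 and 3 and HSC-1 everolimus replicate 3, with differences from -0.51 to -0.42 and limma adjusted p from 0.0528 to 0.0989.

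Side by side, 36 genes had a negative difference in HSC-1 and a positive one in A431, 8 were negative in both lines and 1, PTTG1, was positive in HSC-1 and negative in A431. Across the 45 genes the HSC-1 and A431 effects had a Pearson r of 0.01 and a Spearman rho of 0.29. These are given as a description: the lines share no arrays, and the genes are not independent replicates.

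The 12 genes that missed the threshold in this comparison were CDC25B, CDC25C, CDCA3, NEK2, BUB1B, TTK, PTTG1, KIF4A, NUSAP1, CKAP2, RACGAP1 and TOP2A. Of these, BUB1B and KIF4A had fallen in HSC-1 and the other 10 had not. Their differences ran from -0.40 for KIF4A to 0.36 for PTTG1, with SEs of up to 0.20.

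In DMSO alone the genes did not lie to one side between the lines. In HSC-1, 10 of 45 were higher than in A431 (22.2%), against 29.2% of all genes, and 14 were lower (31.1%), against 30.2% of all genes. The median difference was -0.07, against 0.00 over all tested genes. Single genes differed far more between the lines than with everolimus, up to 2.34-fold, and 6 of the 45 passed 1.5-fold. Of all 10613 genes tested, 2819 passed it, so the share was smaller among the 45 than among all genes. The checkpoint genes and the spindle pole kinases had 0 of 4 and 0 of 3 past the threshold, with differences from -0.08 for PLK1 to 0.10 for AURKA.

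CKAP2 had the largest difference, with 8.30, 8.32 and 8.20 in HSC-1 DMSO, against 7.13, 7.01 and 6.99 in A431 DMSO, a log2 difference of 1.23 ± 0.06 (limma adjusted p = 1.8e-12). CDC25B had 9.30, 9.34 and 9.27 in HSC-1, against 8.20, 8.27 and 8.20 in A431, a log2 difference of 1.08 ± 0.04 (limma adjusted p = 5.26e-14). SGO1, the shugoshin of mitotic centromeres, had 8.31, 8.35 and 8.36 in HSC-1, against 7.56, 7.51 and 7.39 in A431, a log2 difference of 0.85 ± 0.06 (limma adjusted p = 3.27e-10). All HSC-1 arrays lay above all A431 arrays for these genes, and likewise for HMMR at 0.61, KIF15 at 0.60 and KIF14 at 0.55. The share of all genes separated in this way between the lines was not counted, here or below.

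NDC80 was lowest in HSC-1 relative to A431, with 6.90, 6.95 and 6.77 in HSC-1 DMSO, against 7.85, 7.73 and 7.71 in A431 DMSO, a log2 difference of -0.89 ± 0.07 (limma adjusted p = 2.6e-09). KIF18A, a motor that limits chromosome movement, had 7.82, 7.72 and 7.79 in HSC-1, against 8.37, 8.35 and 8.26 in A431, a log2 difference of -0.55 ± 0.05 (limma adjusted p = 2.04e-08). KIF11 had 9.39, 9.29 and 9.30 in HSC-1, against 9.86, 9.90 and 9.84 in A431, a log2 difference of -0.54 ± 0.05 (limma adjusted p = 3.83e-08). All HSC-1 arrays were below all A431 arrays for these 3, as they were for CCNA2 at -0.43 and CCNB1 at -0.42. PTTG1 at -0.43 passed with overlapping groups. It no longer passed when A431 DMSO replicate 1 was left out, at -0.35 with a limma adjusted p of 0.0637, or when HSC-1 DMSO replicate 2 was, at -0.34 and 0.0646.

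**Figure D4:**
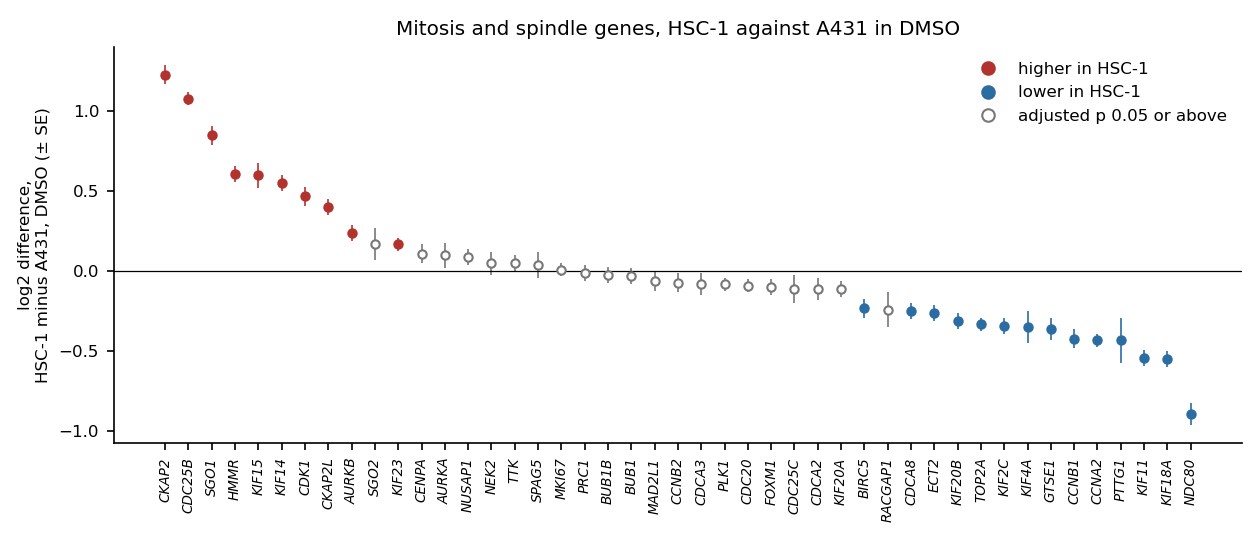
Log2 difference of HSC-1 minus A431 in DMSO for each of the 45 genes in order of size, with bars for the moderated SE. Red points passed the threshold higher in HSC-1 (10), blue points passed it lower in HSC-1 (14) and open points did not pass (21).

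Other genes of mitosis and of its control were counted from 6 lists, beside 11.3% of all tested genes that fell and 7.34% that rose in HSC-1 with a median of -0.02. Of 25 tested of 34 other centromere and kinetochore proteins, 13 fell and 1 rose in HSC-1 with everolimus, with a median log2 difference of -0.21. ZWINT, a kinetochore adaptor, differed by -0.53 ± 0.07, SKA1, which couples kinetochores to microtubules, by -0.51 ± 0.07 and CENPC, a scaffold of the inner kinetochore, by 0.26 ± 0.07. Of 22 tested of 34 other spindle, centrosome and cytokinesis proteins, 12 fell and 1 rose, with a median of -0.24. SHCBP1, a midbody protein, differed by -0.52 ± 0.07, PBK, a mitotic kinase, by -0.51 ± 0.07 and STMN1, stathmin, which destabilises microtubules, by 0.24 ± 0.08. Of 12 tested of 18 condensin and cohesin proteins outside the main list, 5 fell and 0 rose, with a median of -0.10. CDCA5, sororin, differed by -0.47 ± 0.08 and ESCO2, the acetyltransferase of cohesin, by -0.42 ± 0.07.

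The other subunits and regulators of the APC/C, the ligase that CDC20 activates, gave few calls. Of 17 tested of 17, 0 fell and 1, ANAPC16, rose in HSC-1, at 0.16 ± 0.05, and the list's median was -0.05. Of 16 tested DREAM, MuvB and E2F regulators of 18, 5 fell and 2 rose, with a median of -0.14. E2F7 and E2F8, the atypical E2F repressors, both differed by -0.53 ± 0.07, while TFDP2, an E2F partner, differed by 0.29 ± 0.06 and RBL2, the p130 subunit of DREAM, by 0.23 ± 0.07. Of 7 tested of 20 cell cycle inhibitors and p53 targets, CDKN3, a phosphatase of cyclin-dependent kinases, fell, at -0.24 ± 0.05, and CCNG2, cyclin G2, which is linked to cell cycle exit, rose, at 0.46 ± 0.09.

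In A431 few of these genes passed, beside 2.39% of all tested genes that rose and 4.33% that fell. Across the 6 lists SKA2 fell, at -0.30 ± 0.07 (limma adjusted p = 0.00767), and KIF18B, a mitotic kinesin, rose, at 0.27 ± 0.05 (limma adjusted p = 0.00385). Among the DREAM, MuvB and E2F regulators 3 rose and 0 fell, with E2F7 at 0.25 ± 0.07 and MYBL2, or B-MYB, at 0.20 ± 0.05, and BAX, a p53 target that promotes cell death, rose at 0.27 ± 0.08. The count of 3 ran from 0 to 3 over the alternatives. List medians in A431 ran from 0.04 to 0.08, against 0.00 over all genes.

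Several of the rises on these lists rested on single arrays or settings. ANAPC16 kept its call in 11 of 22 alternatives and STMN1 in 7, with limma adjusted p up to 0.218 and 0.209 over the omissions of HSC-1 arrays. CENPC lost its call in 4 of 22, without HSC-1 DMSO replicate 1 or 2 or HSC-1 everolimus replicate 1 or 2, where its difference was 0.22 to 0.26 and its limma adjusted p 0.0549 to 0.0793. RBL2 lost it without any 1 of the HSC-1 arrays other than everolimus replicate 3, with differences of 0.16 to 0.24 and limma adjusted p up to 0.167. In A431, BAX lost its call in 14 of 22 alternatives, E2F7 in 6 and MYBL2 in 4, with limma adjusted p up to 0.195, 0.154 and 0.107. Other rises held in all 22, those of TFDP2 and CCNG2 in HSC-1 and of KIF18B in A431. The falls of ZWINT, SKA1, SHCBP1, PBK, CDCA5, ESCO2, E2F7, E2F8 and CDKN3 in HSC-1, and of SKA2 in A431, also held in all 22.

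**Figure D5:**
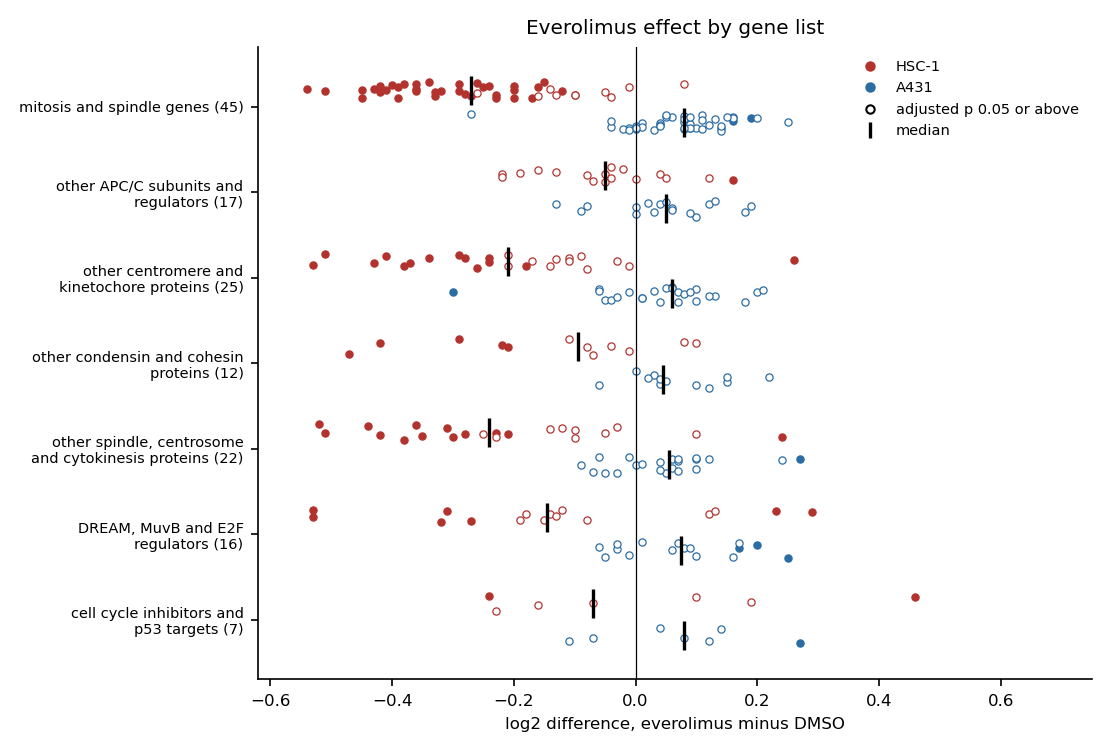
Log2 differences of everolimus minus DMSO for each tested gene of the 45 mitosis and spindle genes and of 6 further lists, in HSC-1 (red, upper row of each list) and A431 (blue, lower row), with filled points past the threshold and a bar at each median. HSC-1 medians lie between -0.27 and -0.05, and A431 medians between 0.04 and 0.08.

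Returning to the promoters, 25 of the 31 genes that fell in HSC-1 and had a promoter in the table held CHR letters (80.6%), as did 3 of the 8 that did not pass (37.5%). A CCAAT box was found in 26 of the 31 (83.9%) and in 5 of the 8 (62.5%). In the window searched, neither motif was found in KIF2C, which fell, or in CDC25B, CDC25C and CKAP2, which did not pass. Like CDC25B, CDC25C has 4 start sites in the table, and each motif was found at 1 or more of the others. The size of the fall was not larger with CHR letters, with a median of -0.25 in 28 genes that held them and -0.36 in 11 that did not. For CCAAT boxes the medians were -0.28 in 31 genes and -0.20 in 8. These counts were made on the same calls that are described above and were not tested.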

How the data were processed

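The authors deposited log2 levels, 1 for each probe set and array, and the submitters' processing notes name RMA and Affymetrix Expression Console as the tools; the versions and the build of the genome were not given in the sources used here. Of 53617 probe sets, 16098 carried 1 gene symbol, all matched by Entrez identifier to GRCh38.p14 names, and 37519 were unnamed here. The brightest named probe set of a gene was used, and genes entered the test if 3 or more of the 12 arrays exceeded the array's median over all probe sets. Group means were fitted to all 12 arrays with lmFit and eBayes (intensity trend) in limma 3.58.1 under R 4.3.3, leaving 8 residual degrees of freedom, and p-values were adjusted by Benjamini-Hochberg over 10613 genes, with a threshold of 0.05. Errors are moderated SEs, intervals are 95%, and the code was tested on simulated data.

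Groups and replicate numbers came from the sample titles. The 45 genes, their roles and the other lists were chosen with earlier results of these data known. The rule named the 2 genes with the largest HSC-1 difference in each role, the 3 with the smallest, the 4 smallest p in A431, the 6 largest differences between the lines' effects, and up to 6 higher and 6 lower between the lines in DMSO. It took up to 2 rising and 2 falling genes from each other list, and further genes are named to account for every one of the 45. Same-numbered arrays did not deviate together (18 pairs, r from -0.155 to 0.0745), so the numbers were not taken as pairs. The alternatives were a replicate block, no filter, a filter at the 60th percentile, no intensity trend, a robust prior, array weights, quantile normalization again, median centring, the mean of probe sets, a fit to 6 arrays only, an adjusted p of 0.01 for counts, and leaving out each array. Running them for the other lists was chosen after seeing the data.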

Additional observations from a re-analysis of the deposited data

Results flagged for a closer look

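For 33 genes the everolimus effect differed between the lines by the test of the difference itself, HSC-1 minus A431, in limma at an adjusted p under 0.05; all 33 values are log2 differences below 0. In mitotic entry they were -0.49 for CCNA2, -0.49 for FOXM1, -0.46 for CCNB1, -0.36 for CDK1 and -0.29 for CCNB2. The spindle pole kinases gave -0.50 for PLK1 and -0.38 for AURKA, the checkpoint -0.46 for MAD2L1 and -0.37 for BUB1, and the APC/C activator CDC20 gave -0.62. In the passenger complex the values were -0.42 for CDCA8, -0.41 for AURKB and -0.35 for BIRC5. Kinetochore and centromere genes gave -0.50 for SGO2, -0.41 for NDC80, -0.36 for CENPA and -0.32 for SGO1. Among the kinesins they were -0.57 for KIF15, -0.43 for KIF14, -0.40 for KIF2C, -0.33 for KIF20A, -0.32 for KIF20B, -0.31 for KIF11, -0.23 for KIF23 and -0.23 for KIF18A. Spindle microtubule proteins gave -0.60 for GTSE1, -0.43 for HMMR, -0.37 for SPAG5 and -0.33 for CKAP2L. Cytokinesis genes gave -0.35 for PRC1 and -0.33 for ECT2, and chromosome structure -0.40 for MKI67 and -0.38 for CDCA2. Of the 33 calls, 23 held in every one of 21 alternatives. The call was lost in 13 of 21 for KIF18A, 9 for SGO2, 8 for SPAG5, 7 for CCNB2, 6 for AURKA and 3 for SGO1, each among them when single arrays were left out, with highest limma adjusted p of 0.117, 0.0989, 0.0955, 0.0748, 0.0844 and 0.0638 in that order. For BIRC5, KIF11, KIF23 and ECT2 it was lost only without the intensity trend, where the limma adjusted p was 0.0551, 0.0766, 0.0882 and 0.0551.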

How the results depend on the processing

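The count of the 45 genes that rose in A431, 3, was the only count of these genes in the 4 comparisons to move by over 1.5 times: it was 0 without the intensity trend, 5 with quantile normalization again, 1 at an adjusted p of 0.01, and 1 to 4 when an array was left out; the cause was not tested. With each array left out, the falls in HSC-1 numbered 28 to 35, the lower differences between the lines' effects 28 to 33, and in DMSO 10 to 11 genes were higher and 13 to 15 lower in HSC-1. The replicate block gave 34 falls in HSC-1, 2 rises in A431, 31 lower differences, and 10 higher and 14 lower genes in DMSO. The HSC-1 falls numbered 28 with no intensity trend, and also when HSC-1 DMSO replicate 2 or replicate 3 was left out. With no intensity trend, 10 of the 33 calls in the difference between the lines' effects were lost. The reversed signs, of CDC25B and PTTG1, came without HSC-1 DMSO replicate 2: over the omissions of 1 array the HSC-1 difference ran from -0.03 to 0.01 for CDC25B and from -0.01 to 0.19 for PTTG1. Calls held in every alternative for 26 of 35 genes in HSC-1, 0 of 3 in A431, 23 of 33 in the difference and 23 of 24 in DMSO. The HSC-1 calls lost somewhere were those of CDK1, BUB1B, NDC80, SGO1, SGO2, KIF11, KIF23, KIF4A and CKAP2L. All of these but SGO2 and KIF4A were lost without the intensity trend. The fit on 6 arrays ended the HSC-1 calls of BUB1B, KIF11 and KIF23. The replicate block ended the calls of KIF23 in HSC-1, CDC25B in A431, and KIF18A and SGO2 in the difference. The fit on 6 arrays cannot give the difference and was not run for it. With 3 arrays a group, the median SE was 0.05, so differences of the size of many in A431 lie near what the arrays can show; levels near the array median, as for PTTG1 and RACGAP1, had SEs of 0.14 and 0.11.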

Other observations

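In DMSO the kinetochore genes outside the list of 45 also differed between the lines in both directions, with 8 higher and 12 lower in HSC-1 than in A431 of 25 tested, against 29.2% and 30.2% of all genes tested. CENPP was higher in HSC-1 by 1.28 ± 0.07 and SKA3 by 1.11 ± 0.07 on the log2 scale, while CENPU differed by -0.92 ± 0.06 and CENPC by -0.86 ± 0.07. These genes were chosen after their values were seen, and all had a limma adjusted p of 8.15e-09 or less. Between the lines' everolimus effects, 8 of the 25 were lower and 0 higher in HSC-1, as were 10 and 0 of 22 other spindle, centrosome and cytokinesis proteins and 5 and 0 of 12 condensin and cohesin proteins, against 5.69% lower and 4.84% higher of all genes tested. Of 16 DREAM, MuvB and E2F regulators 6 were lower and 1 higher, TFDP2 at 0.33 ± 0.08. Of 17 other APC/C subunits and regulators 1 was lower, FBXO5 at -0.37 ± 0.11, and the 7 cell cycle inhibitors and p53 targets had limma adjusted p of 0.0616 or more.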
